A study of Mus musculus with 6 samples.

Results

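The genes described here are 10 genes of the inducible and mitochondrial heat shock machinery: Hspa1a, Hspa1b, Hspa4, Hsph1, Dnaja1, Dnajb1, Hspa9, Hspd1, Hspe1 and their regulator Hsf1. They were chosen by name, and all 10 were found, each once, among the 54532 rows of the expression table. RNA was sequenced from MC3T3-E1 cells, an established pre-osteoblast line derived from mouse skull bone, after 12 hours with a glucocorticoid (GC, 3 libraries) or under normal conditions (control, 3 libraries). The agent and its dose are not named in the labels. The series title places the work in glucocorticoid-induced osteoblast death, and the comparison asks which messenger RNAs differ between GC-treated and untreated cells.

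Heat shock proteins of the HSP70 class hold unfolded stretches of protein and release them in cycles of ATP use. J-domain proteins such as DNAJB1 and DNAJA1 bring clients and start the cycle, and the HSP110 proteins HSPA4 and HSPH1 drive the exchange of nucleotide that ends it. In mitochondria, mortalin (HSPA9) pulls imported proteins through the inner membrane, and HSP60 (HSPD1) with its lid HSP10 (HSPE1) forms a closed chamber in which they fold. HSF1 is the transcription factor that switches on many of these genes when unfolded proteins accumulate. The cytosolic HSP70 cycle also prepares the glucocorticoid receptor for binding its hormone.

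The values are FPKM as deposited, read numbers divided by gene length and library depth. The length counts all annotated exons of a gene together, so the order of levels between genes depends on that choice. Between 15828362 and 17858377 reads per library could be recovered from the values. The treatment was visible in Tsc22d3, a standard glucocorticoid-induced gene, with 171, 146 and 171 FPKM in GC replicates 1 to 3, against 29.9, 28.3 and 27.0 FPKM in control replicates 1 to 3. Osteoblast genes (Runx2, Sp7, Col1a1, Col1a2, Spp1, Ibsp, Bglap, Alpl and Sparc) summed to between 3423 and 3694 FPKM in GC and between 3980 and 4182 FPKM in control, with 7 of 9 above the filter of at least 1 FPKM in 3 libraries, and Bglap and Alpl below it. Defining markers of macrophages, endothelial cells, adipocytes and skeletal muscle summed to less than 1 FPKM in each library, and none of those 17 passed the filter. Adgre1, Tyrobp, Kdr, Plin1, Cidec, Myod1 and Myf5, and the epithelial Epcam, were listed at 0 in all 6 libraries. Of 5 epithelial markers Krt14 passed it, and the 5 summed to between 0.169 and 0.638 FPKM in GC and between 1.83 and 2.50 FPKM in control. Along the first principal component (41.3% of the variance), GC replicate 2 (-4.60) lay nearer to control replicate 1 (-7.57) than to GC replicates 1 (29.9) and 3 (17.5). Along the second (26.5%), GC replicate 2 (-14.5) lay nearer to GC replicate 3 (-18.2) than to control replicate 1 (21.9). Because of its place on the first component, results are also given without GC replicate 2 where they move.

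None of the 9 chaperone genes that could be tested changed past the threshold. Genes entered the test when 3 or more libraries held 1 FPKM or more. The test was limma-trend on log2(FPKM + 1), two-sided, with Benjamini-Hochberg adjustment over all 11730 genes tested and a threshold of 0.05. Across all tested genes 227 passed, or 1.94% (1.08% higher and 0.853% lower in GC), so the absence of calls among 9 genes is close to that background. At an unadjusted p under 0.05 there was 1 member, Hspa9, where 19.3% of all tested genes lay, and limma-voom on the recovered reads called none of the members, against 3.16% of all genes (1.69% higher and 1.47% lower). No member was called without GC replicate 2 either, where 10.5% of all genes passed (3.96% higher and 6.5% lower). The log2 fold changes ran from -0.30 for Hspa9 to 0.34 for Hspe1, with 4 positive, 5 negative and a median of -0.03, against a median of -0.01 over all tested genes. In these bulk samples, fewer cells of a type and less RNA per cell cannot be told apart.

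Levels differed far more between the genes than between the treatments. They rest on the length of all exons together, which can exceed that of a transcript. For Hsf1 that length is 7099 bases, where its longest coding transcript has 2104, and for Hsph1 it is 7266 against 3802. For Hspa1b both are 2803 bases. The order of genes by transcript length was not computed. The mitochondrial genes led: Hspd1 averaged 125 FPKM over the 6 libraries, Hspa9 105 FPKM and Hspe1 65.6 FPKM. Below them came Hspa4 at 43.1 FPKM, Dnajb1 at 21.3 FPKM, Dnaja1 at 18.6 FPKM, Hsph1 at 15.1 FPKM, Hsf1 at 7.57 FPKM and Hspa1b at 6.79 FPKM, and Hspa1a was last at 0.0550 FPKM. The ranges over libraries did not overlap between Hspe1 and Hspa4, Hspa4 and Dnajb1, Hsph1 and Hsf1, or Hspa1b and Hspa1a. They overlapped for every other pair of neighbours, although Hspa9 exceeded Hspe1 within each of the 6 libraries. Hspd1 exceeded Hspa9 in 5 of 6 libraries, Dnajb1 exceeded Dnaja1 in 4 and Hsf1 exceeded Hspa1b in 5. The level of Hspa1b also depends on how reads that fit Hspa1a as well were counted, which is not given.

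**Figure D1:**
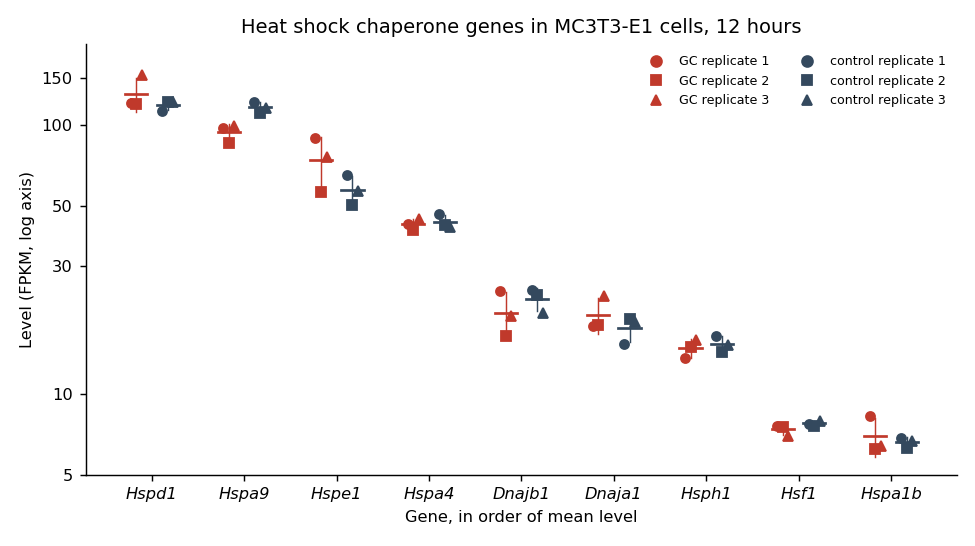
Levels of the 9 tested chaperone genes in FPKM on a log axis, with each library as a point, the mean as a horizontal bar and the SD as a vertical line (n = 3 per group). GC libraries are red and left of the control libraries; for Hspa9 and Hsf1 every GC library lies below every control library, while for the other 7 genes the groups overlap.

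The inducible HSP70 is encoded by a pair of near-identical neighbouring genes without introns, Hspa1b and Hspa1a, whose proteins carry the bulk of the heat-induced HSP70 activity. In mm10, Hspa1b (ENSMUSG00000090877.3) lies on the minus strand of chromosome 17 from 34956436 to 34959238, and Hspa1a (ENSMUSG00000091971.3) from 34969190 to 34972156. Both are single exons that hold the 5′ and 3′ untranslated regions and the coding sequence. The 250 bases before each start, from RefSeq on GRCm38.p6, are shown because they make plain how alike the copies are. They lie on the minus strand of chromosome 17 at chr17:34959239-34959488 for Hspa1b and chr17:34972157-34972406 for Hspa1a. Capitals mark a match to GAANNTTC, a pair of the inverted GAA units that HSF1 recognises.
Hspa1b: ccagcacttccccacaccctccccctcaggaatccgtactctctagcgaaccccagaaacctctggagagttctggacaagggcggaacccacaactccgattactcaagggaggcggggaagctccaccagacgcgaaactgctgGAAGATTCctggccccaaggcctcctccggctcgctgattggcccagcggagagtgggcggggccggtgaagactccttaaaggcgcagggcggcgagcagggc
Hspa1a: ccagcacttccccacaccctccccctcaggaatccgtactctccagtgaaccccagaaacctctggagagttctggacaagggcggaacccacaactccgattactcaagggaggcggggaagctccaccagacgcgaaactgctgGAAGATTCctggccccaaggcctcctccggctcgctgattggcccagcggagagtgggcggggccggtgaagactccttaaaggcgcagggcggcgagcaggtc
The stretches differ at 3 of 250 bases, written with the base of Hspa1b first and counted from 1 at the 5′ end: T44C, C47T and G249T. The marked pair starts 104 bases before the start in both.

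Despite that likeness, nearly all reads were assigned to Hspa1b. It had 8.28, 6.22 and 6.41 FPKM in GC replicates 1 to 3, from 394, 295 and 310 reads, against 6.88, 6.27 and 6.67 FPKM in control replicates 1 to 3, from 310, 276 and 294 reads. GC replicate 1 was the highest library, and the other GC libraries lay within or just under the control range. The log2 fold change was 0.06 ± 0.12 (SE), with a 95% interval from -0.22 to 0.34 and a limma-trend adjusted p of 0.848. Without 1 library at a time it ranged from -0.06 (without GC replicate 1) to 0.13 (without GC replicate 2). On the linear scale of FPKM + 1, the interval ran from 0.856-fold to 1.27-fold.

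Hspa1a was represented by 7, 0 and 0 reads in GC replicates 1 to 3 and by 4, 2 and 3 reads in control replicates 1 to 3. That is 0.139 FPKM in GC replicate 1 and 0.0839, 0.0429 and 0.0643 FPKM in the controls. A count of 0 allows up to 3 reads, or 0.0597 FPKM in GC replicate 2 and 0.0586 FPKM in GC replicate 3, counting error alone. At this depth no difference between the groups could be detected, and the gene did not pass the filter. A neighbour in the same cluster, its relative Hspa1l, held between 0.119 and 0.335 FPKM over the 6 libraries.

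The copies are not equal everywhere. Of the 2918 windows of 50 bases in the Hspa1a transcript, 1202 do not occur in Hspa1b, or 41.2%. Of these 1202 windows, 793 reach into the 3′ untranslated region, and 332 lie within the coding sequence. Another annotated gene, Gm20481, overlaps 564 exonic bases of Hspa1a on the opposite strand and was listed at 0 in each library. Of the 2754 windows of Hspa1b, 62.3% occur in Hspa1a. How reads that fit both copies were counted is not given in the sources used here. The sum over the copies and its split between them are therefore uncertain in the shared windows. Whether the counting of such reads bears on the levels of Hspa1a and Hspa1b, or on ratios to Hspa1b, was not tested.

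The HSP110 genes encode proteins that reset HSP70 by releasing its ADP. Hspa4 (ENSMUSG00000020361.13, chromosome 11 from 53259814 to 53300457, minus strand) had 42.9, 40.6 and 44.6 FPKM in GC replicates 1 to 3, against 46.5, 42.6 and 41.6 FPKM in control replicates 1 to 3. Hsph1 (ENSMUSG00000029657.15, chromosome 5 from 149614287 to 149636376, minus strand) had 13.6, 14.9 and 15.9 FPKM in GC replicates 1 to 3, against 16.5, 14.3 and 15.2 FPKM in control replicates 1 to 3. The groups overlapped for both genes. Log2 fold changes were -0.03 ± 0.10 for Hspa4 and -0.05 ± 0.10 for Hsph1 (SE), with adjusted p-values by limma-trend of 0.919 and 0.855. The 95% intervals ran from -0.27 to 0.21 and from -0.29 to 0.19. Hsph1 stood at 0.347 ± 0.0269 of Hspa4 in GC libraries and at 0.352 ± 0.0147 in control libraries (SD, n = 3 each).

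Among the J-domain partners, Dnajb1, the HSP40 that responds to heat, had 24.2, 16.5 and 19.4 FPKM in GC replicates 1 to 3, against 24.2, 23.3 and 20.0 FPKM in control replicates 1 to 3. GC replicate 1 lay just under the highest control, and the other GC libraries lay below all controls. Its log2 fold change was -0.17 ± 0.15 (SE), with a limma-trend adjusted p of 0.588 and an interval from -0.52 to 0.17. Leaving out 1 library at a time gave from -0.31 (without GC replicate 1) to -0.05 (without GC replicate 2). Dnajb1 (ENSMUSG00000005483.10) lies on the plus strand of chromosome 8 from 83608193 to 83612653.

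Dnaja1, a farnesylated J protein of the cytosol, had 17.8, 18.1 and 23.2 FPKM in GC replicates 1 to 3, against 15.3, 19.0 and 18.6 FPKM in control replicates 1 to 3. GC replicate 3 was the highest library and the other GC libraries lay inside the control range. Its log2 fold change was 0.15 ± 0.14 (SE), with a limma-trend adjusted p of 0.612 and an interval from -0.17 to 0.47, and leaving out 1 library at a time gave from 0.03 (without GC replicate 3) to 0.21 (without GC replicate 1). Dnaja1 (ENSMUSG00000028410.13) lies on the plus strand of chromosome 4 from 40722150 to 40737149. Its exons share 608 bases with Smu1 and 249 with Gm6297 on the opposite strand, so part of its reads is uncertain where counting ignored strand. Of its 5573 windows of 50 bases, 28.8% also occur in another annotated gene, mainly in the processed pseudogenes Gm15542 and Gm7816.

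None of the 3 mitochondrial genes passed the test. Hspa9, encoding mortalin, the motor of protein import, had 97.3, 85.8 and 98.8 FPKM in GC replicates 1 to 3, against 122, 111 and 116 FPKM in control replicates 1 to 3. Every GC library lay below every control library, and the difference had the same sign for each replicate number. The log2 fold change was -0.30 ± 0.12 (SE), an interval from -0.58 to -0.03 and an unadjusted p of 0.0329, and it did not pass after adjustment (limma-trend, adjusted p = 0.216). Leaving out 1 library at a time gave log2 fold changes from -0.34 to -0.24 and adjusted p-values from 0.162 to 0.499, and over all alternatives the adjusted p ranged from 0.0732 to 0.499.

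Hspa9 was 1 of 2 members whose groups did not overlap, and both lay lower in GC. Over all tested genes the groups did not overlap for 25.6%, and GC lay below control for 14.8%, so 2 of 9 is near the background. The other was Hsf1, described further on.

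Hspd1, which encodes the HSP60 chamber, had 120, 119 and 153 FPKM in GC replicates 1 to 3, against 112, 122 and 121 FPKM in control replicates 1 to 3. GC replicate 3 alone stood above the controls. The log2 fold change was 0.13 ± 0.14 (SE), with a limma-trend adjusted p of 0.668 and an interval from -0.19 to 0.45, and leaving out 1 library at a time gave from 0.01 (without GC replicate 3) to 0.19 (without GC replicate 2). Reads of Hspd1 are partly uncertain, since 44.8% of its windows of 50 bases occur in other annotated genes. The main one is the processed pseudogene Hspd1-ps3, which held 4.58, 5.15 and 5.59 FPKM in GC replicates 1 to 3, against 4.15, 4.81 and 6.13 FPKM in control replicates 1 to 3.

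Hspe1, which encodes HSP10, the lid of the chamber, had 89.1, 56.5 and 75.8 FPKM in GC replicates 1 to 3, against 65.0, 50.3 and 56.8 FPKM in control replicates 1 to 3. GC replicates 1 and 3 lay above all controls, and GC replicate 2 lay among them. For each replicate number the GC library was higher, by 0.45, 0.17 and 0.41 on the log2 scale. The fold change of 0.34 ± 0.18 (SE, log2) was the highest among the members and did not pass (limma-trend, adjusted p = 0.362, interval from -0.08 to 0.76). Leaving out 1 library at a time gave from 0.19 (without GC replicate 1) to 0.52 (without GC replicate 2), the last with an adjusted p of 0.0689 by the same test, and over all alternatives the adjusted p ranged from 0.0689 to 0.740. Of the 725 windows of 50 bases in Hspe1, 44.8% also occur in other annotated genes.

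Hspe1 is also the shortest member, with 1474 exonic bases, and libraries differed by gene length. Among the 2332 tested genes of the shortest quintile, 45 to 1891 bases, deviations from the mean of each gene had medians of 0.20, -0.15 and 0.12 in GC replicates 1 to 3 and -0.02, -0.08 and -0.02 in control replicates 1 to 3. Hspe1 itself deviated by 0.46, -0.18 and 0.23 in the GC libraries and by 0.02, -0.35 and -0.18 in the control libraries. Both sets of values have GC replicate 1 highest and GC replicate 3 next. The part of this gradient in the difference of Hspe1 was not tested. For Hspa9, with 4310 exonic bases, the quintile of its length differed by -0.01 between GC and control.

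**Figure D2:**
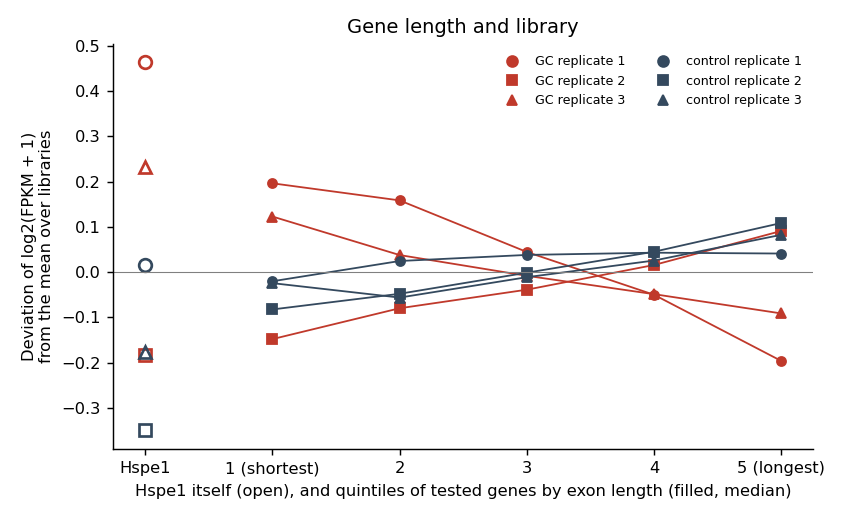
Deviation of log2(FPKM + 1) from the mean over the 6 libraries, for Hspe1 (open symbols) and as the median of the tested genes in each quintile of exon length (filled symbols, joined by library), with GC in red and control in dark blue. In the shortest quintile GC replicates 1 and 3 lie at 0.20 and 0.12 and GC replicate 2 at -0.15, and in the longest quintile the order of these 3 is turned round.

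Hspd1 (ENSMUSG00000025980.14, minus strand, chromosome 1 from 55077835 to 55088243) and Hspe1 (ENSMUSG00000073676.4, plus strand, chromosome 1 from 55088132 to 55091307) sit head to head. Their first exons share 112 bases, and the genes are read in opposite directions. A short stretch is shown because its run of HSF1-type units lies before the RefSeq start of Hspe1 and before 1 of the RefSeq starts of Hspd1. It is printed on the plus strand, at chr1:55088053-55088082 of GRCm38.p6 (RefSeq), beginning 95 bases before the start of Hspe1. Capitals mark the overlapping matches to GAANNTTC and TTCNNGAA. For comparison, the match nearest the start of Hsph1 is given on the minus strand at chr5:149636356-149636375.
Hspe1 and Hspd1: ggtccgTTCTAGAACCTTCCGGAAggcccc
Hsph1: gaatctTTCTCGAAggctcg

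Promoters were listed in RefSeq for 8 of the 10 genes, 250 bases before each start. GAANNTTC or TTCNNGAA, which read the same on both strands, occurred for 6 of these genes: Dnaja1, Hspa1a, Hspa1b, Hspd1, Hspe1 and Hsph1. A gene was counted when any of its listed starts had a match, and other starts of Hspd1 and Dnaja1 had none. The matches of Hspd1 and Hspe1 are the same site, and the stretches of Hspa1a and Hspa1b are near copies. Of all 32851 RefSeq promoter stretches of that length, each counted singly, 12.8% hold such a match. The count of genes is therefore not on the same footing as that share. The longer runs GAANNTTCNNGAA and TTCNNGAANNTTC are reverse complements of each other and made of overlapping pairs. They were found for Hspd1 and Hspe1, at the same site read from both genes, and in 0.466% of all stretches. Another listed start of Hspd1 had none. GNACANNNTGTNC, a loose form of the glucocorticoid receptor element, which reads alike on both strands, was found for no member and in 0.387% of all stretches. These are matches of letters, and binding was not measured.

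Ratios taken within a library do not depend on its depth, but they can still carry the gradient by gene length. Between GC and control, the length quintile of Hspe1 differed by 0.10, that of Hspd1 by 0.07 and that of Hspa9 by -0.01. The part of this gradient in the ratios was not tested. Hspd1 stood at 1.24, 1.39 and 1.54 times Hspa9 in GC replicates 1 to 3, against 0.925, 1.10 and 1.05 times in control replicates 1 to 3. Hspe1 stood at 0.915, 0.659 and 0.766 times Hspa9 in GC replicates 1 to 3, against 0.535, 0.453 and 0.490 times in control replicates 1 to 3. In both ratios each GC library exceeded each control library. A two-sided exact permutation test of 3 against 3 gave p = 0.1 for each, the smallest value this design allows, and 0.3 after adjustment over the 6 ratios computed.

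For the other 4 ratios the groups overlapped. Hspe1 averaged 0.570 ± 0.148 of Hspd1 in GC and 0.486 ± 0.0850 in control (SD, n = 3 each; exact permutation p = 0.5). The ratio of Dnaja1 to Dnajb1 averaged 1.01 ± 0.241 in GC and 0.790 ± 0.151 in control (exact permutation p = 0.3), and that of Dnajb1 to Hspa1b 2.86 ± 0.195 in GC and 3.41 ± 0.375 in control (exact permutation p = 0.2; SD, n = 3 each). For Hsph1 to Hspa4 the exact permutation p was 0.9. The permutation tests did not use the replicate numbers. For each of the 3 numbers, the GC library had the higher ratio of Hspe1 to Hspd1 and of Dnaja1 to Dnajb1, as it had for both ratios to Hspa9. The 6 ratios were chosen with the values known.

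**Figure D3:**
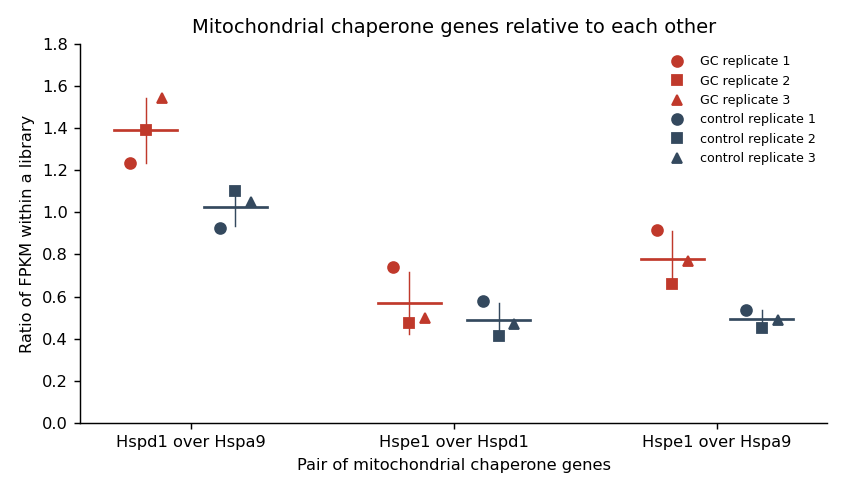
Ratios of FPKM within each library for the 3 pairs of mitochondrial chaperone genes, with GC in red left of control in dark blue, means as horizontal bars and SD as vertical lines (n = 3 per group). The GC libraries lie wholly above the control libraries for Hspd1 over Hspa9 and Hspe1 over Hspa9, and the groups overlap for Hspe1 over Hspd1.

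Hsf1 (ENSMUSG00000022556.11, plus strand, chromosome 15 from 76477422 to 76501913) encodes the factor that drives heat shock genes, a protein regulated mostly after translation. It had 7.61, 7.55 and 6.97 FPKM in GC replicates 1 to 3, against 7.75, 7.61 and 7.94 FPKM in control replicates 1 to 3. The groups did not overlap, by a margin of less than 0.01 FPKM between GC replicate 1 and control replicate 2. The log2 fold change was -0.07 ± 0.09 (SE), the limma-trend adjusted p was 0.756, and the 95% interval from -0.28 to 0.14 was the narrowest of the 9.

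**Figure D4:**
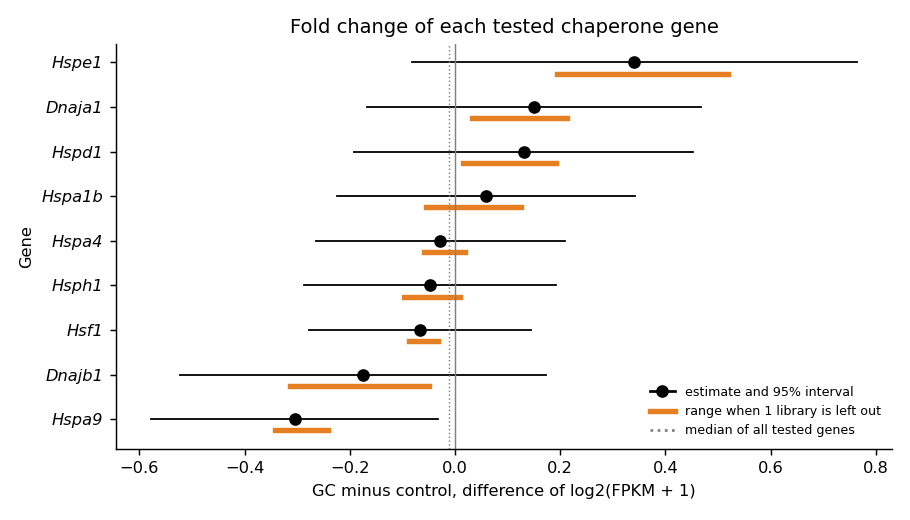
Difference of log2(FPKM + 1), GC minus control, for each tested member with its 95% interval from limma-trend (black) and its range when 1 library at a time is left out (orange). The interval of Hspa9 lies below 0 before adjustment for multiple tests, and the intervals of the other 8 genes include 0.

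The partners of these chaperones were counted in 9 lists of 102 different genes, 97 of them tested. No list gene passed by limma-trend, where 1.94% of all tested genes did (1.08% higher and 0.853% lower). By the same test 9 reached an unadjusted p under 0.05, against 19.3% of all tested genes. Of the 97, limma-voom called 1 higher and 1 lower, against 3.16% of all genes (1.69% higher and 1.47% lower). With the replicate number as a block 5 were higher and 3 lower, where 8.96% of all tested genes passed (3.96% higher and 5% lower). Without GC replicate 2, 4 were higher and 4 lower, where 10.5% of all tested genes passed (3.96% higher and 6.5% lower). The median log2 fold change of the 97 was -0.01, the same as over all tested genes to that precision. Of all 11730 tested genes, 5594 had positive and 6136 negative fold changes. The genes called with the block, named after their values were seen, were Cryab, Pfdn4, Hsbp1, Hscb and Dnajb4, higher in GC, and Hspa12b, Dnajc13 and Hspa4l, lower in GC. The part of the gradient by gene length in these calls was not tested.

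Among cytosolic HSP70 and HSP110 relatives, Hspa8, the constitutive HSP70, averaged 343 ± 48.2 FPKM in GC and 350 ± 42.4 FPKM in control (SD, n = 3 each). Hspa14, a ribosome-bound relative, averaged 20.5 ± 2.03 FPKM in GC and 19.2 ± 0.748 FPKM in control. Neither passed, and the 6 tested genes of this list had a median log2 fold change of -0.04. Hspa12b, a distant member of the family, averaged 5.30 ± 0.642 FPKM in GC and 8.34 ± 0.710 FPKM in control. Its adjusted p was 0.0548 by limma-trend, 0.0149 with the replicate block and 0.0384 by limma-voom, and ranged from 0.0149 to 0.232 over the alternatives.

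Of 16 tested J-domain proteins, listed as cytosolic although some act elsewhere, 5 had positive and 11 negative fold changes, with a median of -0.02. Dnaja2, a relative of Dnaja1, averaged 55.0 ± 5.65 FPKM in GC and 55.3 ± 1.31 FPKM in control, and Dnajc8 38.1 ± 4.11 FPKM in GC and 38.5 ± 1.46 FPKM in control (SD, n = 3 each). With the block, Dnajb4 was called higher (adjusted p = 0.0429) and Dnajc13, an endosomal J protein, lower (adjusted p = 0.0402), both by limma-trend. Over the alternatives these adjusted p-values ranged from 0.0429 to 0.589 and from 0.0402 to 0.516. None of the 7 nucleotide exchange factors passed, with a median of -0.01. Bag1 averaged 160 ± 30.1 FPKM in GC and 159 ± 7.62 FPKM in control, and Bag3, the BAG protein induced by HSF1, 50.6 ± 5.74 FPKM in GC and 55.4 ± 1.06 FPKM in control.

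The 13 listed co-chaperones of HSP70 or HSP90 had 7 positive and 6 negative fold changes and a median of 0.07. Stip1, the HOP adaptor that joins both chaperones, averaged 109 ± 10.5 FPKM in GC and 119 ± 8.03 FPKM in control, and Ptges3, the p23 co-chaperone, 102 ± 12.0 FPKM in GC and 96.5 ± 5.58 FPKM in control (SD, n = 3 each). The 14 subunits of TRiC and prefoldin, the cytosolic folding chamber and its feeder, had 12 positive fold changes and a median of 0.07. Of all 11730 tested genes 5594 were positive. Cct2 averaged 160 ± 21.8 FPKM in GC and 159 ± 12.6 FPKM in control, and Cct5 127 ± 19.8 FPKM in GC and 130 ± 10.8 FPKM in control. Without GC replicate 2 all 14 were positive, with a median of 0.19. Over all tested genes the median was then 0.0036, and 5925 of 11730 were positive. After rescaling to TPM 8 of the 14 were positive and 6 negative, where 4734 of all 11730 tested genes were positive. The part of the gradient by gene length in these signs was not tested.

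Among mitochondrial partners no gene passed by limma-trend. Of 16 tested genes of mitochondrial chaperone partners, the import motor and its gates, 7 had positive and 9 negative fold changes, with a median of -0.01. Tomm20, a receptor of the outer membrane, averaged 65.9 ± 12.8 FPKM in GC and 61.6 ± 9.31 FPKM in control, and Trap1, the mitochondrial HSP90, 35.5 ± 3.95 FPKM in GC and 34.6 ± 2.91 FPKM in control (SD, n = 3 each). Hscb, the J protein of iron-sulphur cluster assembly that works with HSPA9, averaged 6.69 ± 0.332 FPKM in GC and 4.77 ± 0.279 FPKM in control. Its adjusted p was 0.0790 by limma-trend and 0.0322 with the replicate block, with a range of 0.0322 to 0.348 over the alternatives. Timm23, the channel of the inner membrane, was likewise singled out with its values known, and averaged 18.7 ± 4.64 FPKM in GC and 26.3 ± 4.37 FPKM in control. Its limma-trend adjusted p was 0.241, from an unadjusted p of 0.0428. Every GC library of Timm23 lay below every control library, as for 14.8% of all tested genes. The groups also did not overlap for Timm44 and Lonp1, lower in GC, and for Hscb and Spg7, higher in GC. The 11 mitochondrial proteases had a median of -0.06, with Lonp1 at 36.3 ± 2.73 FPKM in GC and 42.0 ± 2.48 FPKM in control and Clpp at 35.6 ± 7.95 FPKM in GC and 30.9 ± 1.84 FPKM in control.

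Around HSF1, 6 of 8 listed genes were tested, 1 with a positive and 5 with negative fold changes. By limma-trend 3 of the 6 had an unadjusted p under 0.05, where 19.3% of all tested genes lay, and none passed after adjustment. Hsbp1, a small protein that binds the trimer of HSF1, averaged 58.2 ± 10.1 FPKM in GC and 42.5 ± 2.61 FPKM in control, a log2 fold change of 0.43 ± 0.14 (SE). Its adjusted p was 0.170 by limma-trend and 0.0482 with the replicate block, with a range of 0.0304 to 0.469 over the alternatives. Ep300, an acetyltransferase that modifies HSF1, averaged 6.26 ± 2.31 FPKM in GC and 9.47 ± 0.0726 FPKM in control, with a limma-trend adjusted p of 0.178, or 0.0102 without GC replicate 2 and up to 0.454 under other alternatives. It had 4.78, 8.92 and 5.07 FPKM in GC replicates 1 to 3. Its length puts Ep300 in the longest quintile, where the median deviations in these libraries were -0.20, 0.09 and -0.09. The part of this gradient by gene length in the differences of Ep300 and Hsbp1 was not tested.

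Textbook HSF1 targets outside the 10 genes were 18 tested of 19, with 8 positive and 10 negative fold changes and a median of -0.03. Hsp90ab1, the constitutive HSP90, averaged 677 ± 60.7 FPKM in GC and 807 ± 72.2 FPKM in control (SD, n = 3 each), with a limma-trend adjusted p of 0.427. Cryab, a small heat shock protein, averaged 99.7 ± 13.7 FPKM in GC and 62.0 ± 3.47 FPKM in control, with an adjusted p of 0.0537 by limma-trend, 0.0175 with the replicate block and 0.0240 by limma-voom, and from 0.0140 to 0.241 over the alternatives. Each GC library of Cryab exceeded each control library, as for 10.8% of all tested genes. For Hsp90ab1 each GC library lay below each control library, as for 14.8% of all tested genes. The part of the gradient by gene length in the difference of Cryab was not tested.

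**Figure D5:**
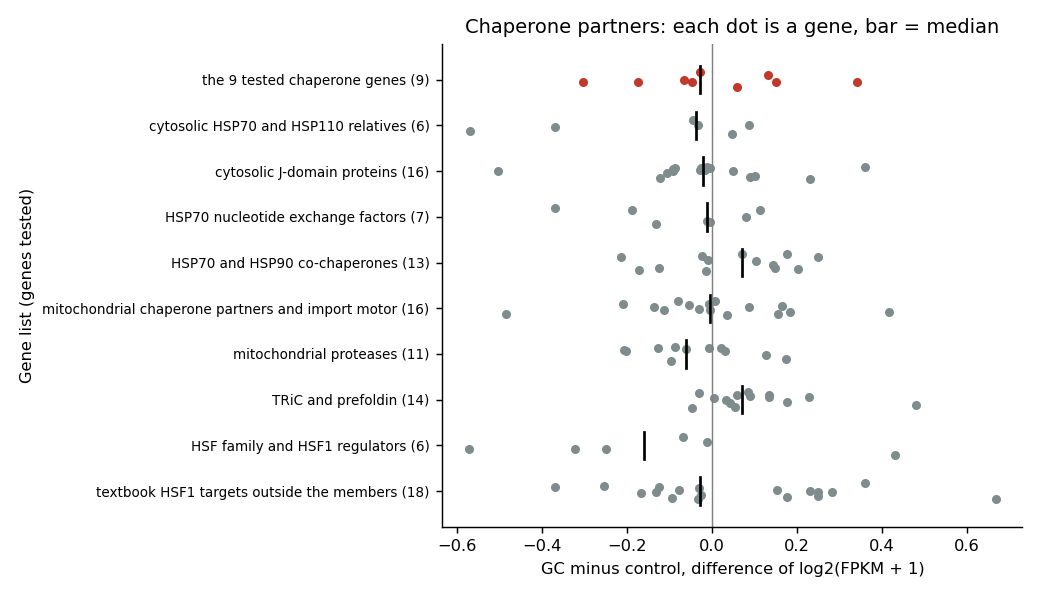
Difference of log2(FPKM + 1), GC minus control, for the 9 tested chaperone genes (red) and for the tested genes of 9 lists of partners (grey), with 1 dot per gene and the median as a black bar. The medians lie between -0.16 for the HSF family and HSF1 regulators and 0.07 for TRiC and prefoldin, and single genes reach 0.67 (Cryab) and -0.57 (Ep300 and Hspa12b).

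Genes whose profile over the 6 libraries came nearest to that of a member were ranked among 5104 other tested genes with a mean of at least 10 FPKM. The measure was the root-mean-square distance of log2(FPKM + 1) after centring. For Hspa1b these were Pex19, Derl1 and Kctd5, at distances of 0.0221, 0.0242 and 0.0264, where Hspa1b itself varied by 0.123 about its mean. For Hsph1 they were Msh6, Ripk2 and Ublcp1, at 0.0312, 0.0378 and 0.0382. For Dnajb1 they were Pgk1, Pgp and Ldha, at 0.0404, 0.0407 and 0.0421, with a spread of 0.194 for Dnajb1 itself. For Hspd1 they were Hccs, Ska2 and Rbm34, at 0.0325, 0.0327 and 0.0351. None of these 12 genes passed the test between GC and control.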

How the data were processed

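Per the labels' protocols, TRIzol was used for RNA extraction and a NEBNext Ultra kit for the libraries. The submitters' processing notes name HISAT2, HTSeq, DESeq2 and mm10. No versions, annotation or strandedness of counting are given in the sources used here. The deposited values are FPKM made by the authors; the unit was found from the values, since the header names none. Multiplied by GENCODE M21 exon length and 1 factor per library, 25620 of 26481 rows with a unique name, a length and a value above 0 (96.7%) were whole within 0.0001 reads. For 572 further tested rows, Hspa9 among them, another length made them whole. Groups came from sample titles. The design text calls the replicates biological; p-values measure the spread between these libraries.

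limma 3.58.1 in R 4.3.3 was run with trend and robust options and tested on simulated data. There it recovered 40% of changes of 1.5-fold and 91% of changes of 2-fold among 11730 genes, so smaller changes would often be missed. limma-voom used median-of-ratios library sizes of the recovered reads. Planned count tests were not needed, since the unit was FPKM. Between GC and control libraries of the same replicate number, deviations from the group means correlated by 0.511, 0.248 and 0.383 over 11730 genes, each above 0.1. Between different numbers the highest correlation was 0.0233. Deviations from a group mean cancel over its libraries, so a positive correlation of equal numbers lowers those of different numbers by construction. The replicate block, which treats equal numbers as pairs, was run as an alternative. The main fit, its intervals and the permutation tests used no pairing. The labels name no shared culture. The members and lists were chosen with earlier results of these data known. Genes of lists were named by highest mean level (2 per list) or, where stated, after their values were seen.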

Additional observations from a re-analysis of the deposited data

How the results depend on the processing

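No member passed the threshold under any of the 13 alternatives run, and the lowest adjusted p among 117 member values was 0.0689; none was called. The replicate block changed no call among the members, with limma-trend adjusted p-values of 0.0730 for Hspe1 and 0.0878 for Hspa9. Signs held in 112 of 117 values. Those that turned were near 0 and came from leaving out 1 library: over the 6 such fits Hspa1b ranged from -0.056 (without GC replicate 1) to 0.13, Hspa4 from -0.060 to 0.018 (without control replicate 1; 0.0070 without GC replicate 2) and Hsph1 from -0.097 to 0.0095 (without GC replicate 1; 0.0029 without control replicate 1). Rescaling to TPM moved the median of all tested genes to -0.07, and all 9 members kept their sign.

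The count over all genes, 227, was 1051 with the replicate block, 368 by limma-voom and 17 with no filter, where 26749 rows were tested. Without 1 library it ranged from 16 (without GC replicate 3) to 1227 (without GC replicate 2), with 113 without GC replicate 1 and 37, 33 and 29 without control replicates 1, 2 and 3. The cause was not tested.

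Tested members had between 276 and 7683 reads per library. Over the 9 members the 95% intervals, before adjustment, reached at most 1.70-fold (Hspe1) and at least 0.670-fold (Hspa9), and they differed in width between genes.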
